A study of Mus musculus with 4 samples.

Results

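The platelet-derived growth factor (PDGF) family of the mouse comprises the ligand genes Pdgfa, Pdgfb, Pdgfc and Pdgfd and the receptor genes Pdgfra and Pdgfrb. These 6 genes were taken by symbol from the 54842 genes of the count table and were followed in all 4 libraries. The libraries were made from total RNA of mouse embryonic fibroblasts (MEF cells) after depletion of ribosomal RNA, with 2 libraries of wt cells and 2 of Top2β-null cells, all of them untreated and grown in medium with fetal bovine serum. Top2β is a DNA topoisomerase that relieves torsional stress in chromatin by passing one DNA duplex through another. The comparison asked which transcripts differ when this enzyme is missing. The Top2β-null MEF cells were a gift from other laboratories, and the sources used here do not say whether the wt MEF cells share their strain or origin, so genotype and origin of the cells cannot be told apart. The labels do not state that replicates came from separate cultures, and p-values therefore measure the spread between these libraries, which may be technical.

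PDGF ligands are secreted as dimers that bind and pair receptor tyrosine kinases at the cell surface. PDGF-A and PDGF-C act mainly through the receptor encoded by Pdgfra, PDGF-D acts mainly through the receptor encoded by Pdgfrb, and PDGF-B binds both. The pathway is a classical mitogen and migration signal for fibroblasts, pericytes and vascular smooth muscle cells, and cultured fibroblasts receive PDGF with serum.

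Total counts per library ranged from 133116830 to 149647278, and normalized counts are these counts scaled to a common library size. Differences were tested with edgeR's quasi-likelihood test over 26566 genes and repeat families, with adjustment after Benjamini and Hochberg. A feature was called when its adjusted p was below 0.05, its absolute log2 fold change above 1 and its mean normalized count above 100. Top2b itself was measured at 18259 and 18465 normalized counts in wt and at 3879 and 3789 in Top2β-null MEF cells, or 20.9% of wt. Reads were thus lower but still present over the gene in both libraries labelled Top2β-null. Fibroblast markers were expressed in both groups, and their summed level lay in a narrow range within each group, from 1349723 to 1373963 normalized counts in wt and from 913175 to 918061 in Top2β-null MEF cells. Of these 12 markers, Thy1 and Dcn were higher and Col1a1 and Col3a1 were lower in the Top2β-null libraries, while Lum, a defining fibroblast proteoglycan, had at most 4 counts in any library. Of the features tested, 1399 (5.27%) were called higher and 1320 (4.97%) were called lower in Top2β-null MEF cells, together 10.2%. Hprt, which served the study as RT-qPCR reference, was at 77.4% of wt in Top2β-null MEF cells. Scaling to Hprt shifted the median log2 fold change of all features from 0.0027 to 0.37 and changed the split to 2318 higher and 767 lower.

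The ligand genes differ widely in their extent on the genome (GRCm38 coordinates, GENCODE M21). Pdgfa lies on the minus strand at chr5:138976014-138997370 and Pdgfb on the minus strand at chr15:79995874-80014977, spanning 21357 and 19104 bases. Pdgfc lies on the plus strand at chr3:81036416-81214040 and Pdgfd on the plus strand at chr9:6168584-6378850, and they span 177625 and 210267 bases. The receptor gene Pdgfra is on the plus strand at chr5:75152292-75198215 and spans 45924 bases. Windows of 250 bases upstream of a transcription start were read from RefSeq (GRCm38.p6), which had entries for Pdgfa, Pdgfc, Pdgfd and Pdgfra among those looked up. The windows of Pdgfc (chr3:81036166-81036415), Pdgfd (chr9:6168236-6168485) and Pdgfra (chr5:75152001-75152250) are shown 5′ to 3′ on the plus strand because their genes changed the most among these 4. Capitals mark matches on either strand to the motifs searched. The core promoter motifs searched were the TATA box, with the letters TATAAA, the GC box, with the letters GGGCGG, and the CCAAT box under its own letters. The sites of regulated factors searched were the GATA site, with the letters AGATAA, the half-site of the cyclic AMP response element (CRE), with the letters TGACG, the E-box, with the letters CACGTG, and the AP-1 site, with the letters TGANTCA. No match overlapped another motif in these windows.
Pdgfc: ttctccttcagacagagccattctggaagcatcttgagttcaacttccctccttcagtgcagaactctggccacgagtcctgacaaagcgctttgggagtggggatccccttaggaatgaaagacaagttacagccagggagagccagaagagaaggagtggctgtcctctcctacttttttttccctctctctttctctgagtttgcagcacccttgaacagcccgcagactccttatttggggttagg
Pdgfd: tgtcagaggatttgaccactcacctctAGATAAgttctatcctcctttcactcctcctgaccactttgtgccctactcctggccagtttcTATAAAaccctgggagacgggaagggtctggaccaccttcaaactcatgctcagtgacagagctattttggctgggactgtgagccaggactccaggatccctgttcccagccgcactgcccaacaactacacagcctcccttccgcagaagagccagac
Pdgfra: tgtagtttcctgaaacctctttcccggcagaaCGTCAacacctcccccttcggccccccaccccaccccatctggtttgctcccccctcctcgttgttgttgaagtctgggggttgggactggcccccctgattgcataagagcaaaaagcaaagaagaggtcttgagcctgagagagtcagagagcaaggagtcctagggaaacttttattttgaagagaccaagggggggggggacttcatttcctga

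The Pdgfc window held none of the motifs. The Pdgfd window held the TATA letters beginning 160 bases upstream of the start and the GATA letters at 223 bases upstream. These letters occurred in 12.4% and 9.99% of all 32851 promoter windows, respectively. The Pdgfra window held the CRE half-site letters at 218 bases upstream, which occurred in 17.8% of windows. The number of CpG dinucleotides was 3 in Pdgfc, 3 in Pdgfd and 4 in Pdgfra against a median of 6, and 29.0%, 29.0% and 37.8% of all windows held fewer. The promoter windows of Pdgfa, the ligand gene that moved least, contained 19 and 28 CpG dinucleotides, with 80.3% and 92.4% of windows holding fewer. A GC box was found in both Pdgfa windows, and GC boxes occurred in 32.7% of all windows.

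All 6 PDGF genes passed the filter on low counts, and 3 of them were called. Pdgfra and Pdgfrb were higher and Pdgfd was lower in Top2β-null MEF cells, beside 10.2% of all features called. The libraries of both genotypes were separated without overlap for all 6 genes, and each had an adjusted p below 0.05. Such separation was common in these data, with 80.5% of features showing no overlap and 65.0% an adjusted p below 0.05. The median log2 fold change of the 6 genes was 0.28. The plot of normalized counts by library shows this separation for every gene.

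**Figure D1:**
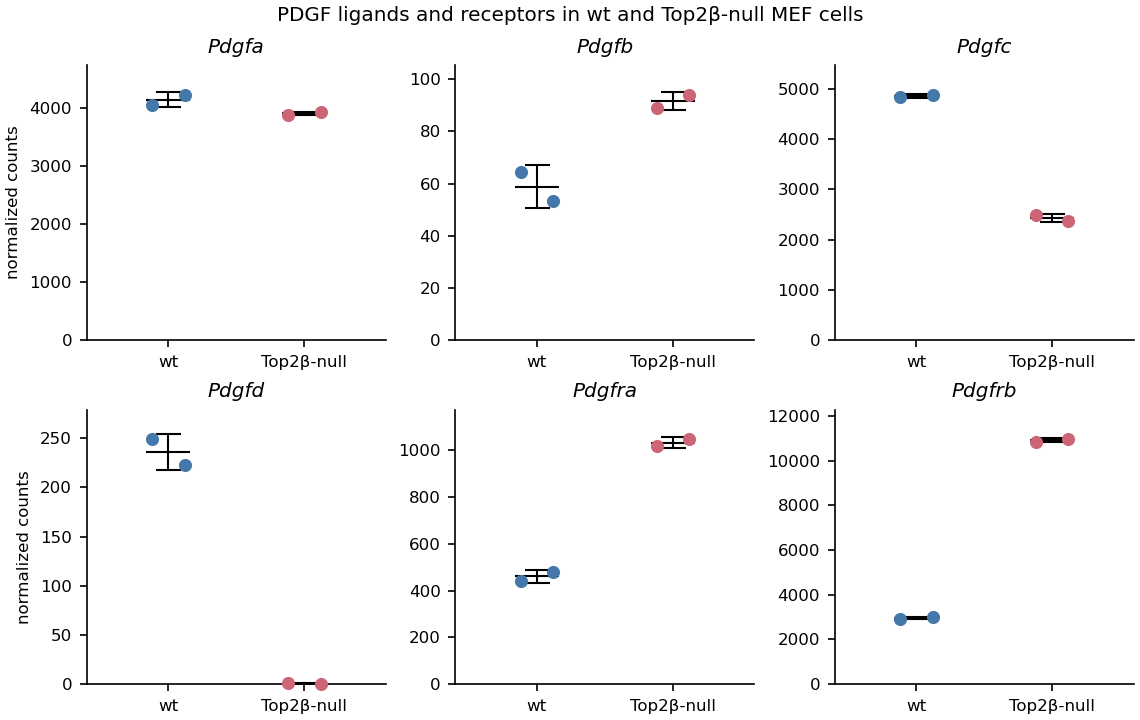
Normalized counts (vertical axis, linear from 0, own scale in each panel) of the 6 PDGF genes in wt (blue) and Top2β-null (red) MEF cells; points are libraries, black bars the mean ± SD (n = 2). Both receptors were higher in the Top2β-null libraries, Pdgfc was at 50.1% of wt, and Pdgfd fell to 1 and 0 counts.

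Among the ligands, Pdgfd showed the widest difference. It encodes a ligand that is secreted in latent form and released by proteolysis. The wt libraries contained 247 and 231 counts of Pdgfd, equal to 249 and 223 normalized counts. The Top2β-null libraries contained 1 and 0 counts. Transcripts of Pdgfd were therefore at the limit of detection in both Top2β-null libraries and well measured in both wt libraries. The pooled ratio of wt over Top2β-null was 466, with a 95% exact interval of 83.2 to 18400 that covers counting error only. edgeR's quasi-likelihood test gave an adjusted p of 1.4e-11, and the fitted log2 fold change of -8.55 depends on the prior count. It was -10.89 without Top2β-null replicate 1 and -7.67 without Top2β-null replicate 2, and Pdgfd was called in both fits. As a description, 58 of the 4834 features at 0.5 to 2 times its mean level (1.2%) moved as far or farther in either direction.

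The gene Ddi1, a retroviral-like aspartic protease gene, lies on the opposite strand within the span of Pdgfd. It had 59 and 74 counts in wt and 0 in both Top2β-null libraries. Ddi1 shares no exonic base with Pdgfd, but the strand setting of the counting is not given in the sources used here. Its part in the counts of Ddi1 was not tested. With a mean of 32.8 normalized counts, Ddi1 remained under the cut-off on level. It was the only protein-coding gene tested within 500 kb of Pdgfd.

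Pdgfc, the other ligand that is secreted in latent form, was reduced to about the fold cut-off. Its normalized counts were 4834 and 4887 in wt and 2493 and 2376 in Top2β-null MEF cells. Both Top2β-null libraries were far below both wt libraries. The means of 4861 ± 38.1 and 2434 ± 82.6 (SD, n = 2) gave a log2 fold change of -0.998 (SE 0.0373, adjusted p = 8e-13), just short of the cut-off of 1. The log2 fold change was -1.006 without wt replicate 1 and -0.99 without wt replicate 2. It was -1.011 without Top2β-null replicate 1 and -0.96 without Top2β-null replicate 2. Fits without a library thus fell on both sides of the cut-off, and scaling to Hprt gave -0.629. The antisense gene Gm16000 shares 147 exonic bases with Pdgfc and had 442 and 532 counts in wt and 173 and 227 in Top2β-null MEF cells. The strand setting of the counting is not given in the sources used here, and its part in either value was not tested.

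Pdgfa was the most even member. This ligand activates PDGFRα and is made by many epithelia and fibroblasts. Its normalized counts were 4041 and 4223 in wt and 3878 and 3921 in Top2β-null MEF cells. The highest Top2β-null library was just below the lowest wt library. The log2 fold change was -0.08 (SE 0.035, adjusted p = 0.0466 with edgeR), and the sign turned under scaling to Hprt (0.28, adjusted p = 7.5e-07). Under scaling to the total count the adjusted p was 0.75. Without wt replicate 2, Top2β-null replicate 1 or Top2β-null replicate 2 the log2 fold change was -0.05, -0.06 or -0.09, and the adjusted p was 0.322, 0.329 or 0.0984. A change of at least this size was seen in 82.8% of the 5006 features of similar level. The antisense gene 6330403L08Rik shares 813 exonic bases with Pdgfa and had between 1079 and 1215 counts in all 4 libraries.

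Pdgfb, which encodes the ligand that binds both receptors and is mainly made by endothelial cells and platelets, was scarce in both groups. The wt libraries had 64.6 and 53.1 normalized counts and the Top2β-null libraries 89.1 and 94.1. The Top2β-null libraries lay above wt at a low level in all 4 libraries. The means of 58.9 ± 8.11 and 91.6 ± 3.55 (SD, n = 2) gave a log2 fold change of 0.64 (SE 0.204, adjusted p = 0.0121), and Pdgfb was not called, since both this value and the mean of 75.2 normalized counts lay under their cut-offs. Without wt replicate 2 the log2 fold change was 0.50 and the adjusted p was 0.094. DESeq2 gave an adjusted p of 0.0685. Under scaling to Hprt the log2 fold change of Pdgfb was 1.008, and the gene was still not called. Of the 9 endothelial markers, Pecam1 had 16.6 to 29.9 and Cdh5 22.8 to 32.3 normalized counts, and Tie1 and Emcn had at most 3 counts in any library. Kdr, a VEGF receptor gene, was called higher. Esam had 62.6 and 81.1 normalized counts in wt and 145 and 124.8 in Top2β-null MEF cells (log2 fold change 0.90, adjusted p = 0.0005). Vwf had 74.7 and 50.2 in wt and 115 and 111 in Top2β-null MEF cells (log2 fold change 0.86, adjusted p = 0.0019). Esam and Vwf thus passed the adjusted p in the same direction as Pdgfb, whereas Tek had a log2 fold change of -2.54. The summed level of the 9 endothelial markers was 304 and 296 normalized counts in wt and 517 and 503 in Top2β-null MEF cells. The sum of 6 megakaryocyte and platelet markers was between 902 and 1049 normalized counts, with the defining marker Pf4 at no more than 3 counts. Of these, Ppbp was called higher, from 8.07 and 31.9 normalized counts in wt to 424 and 464.5 in Top2β-null MEF cells, and Gp1ba was called lower (log2 fold change -1.54). The part of such cells in the level of Pdgfb was not tested.

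Both receptor genes were up-regulated in Top2β-null MEF cells. Pdgfrb, whose product is the receptor of pericytes, smooth muscle cells and fibroblasts, had 2936 and 3000.0 normalized counts in wt and 10857 and 10979.8 in Top2β-null MEF cells. The gene lies on the plus strand at chr18:61045150-61085061, spans 39912 bases and overlaps no other annotated gene. Both Top2β-null libraries lay far above wt. The means of 2968 ± 45.3 and 10918 ± 86.9 (SD, n = 2) differed 3.68-fold, with a log2 fold change of 1.88 (SE 0.0283, adjusted p = 9.3e-18). Among 4555 features of similar level, 2.83% had a log2 fold change of this size or more. The difference was called under all 11 alternatives that gave a value, with log2 fold changes from 1.86 to 2.25.

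Pdgfra, whose product is the receptor of fibroblasts and oligodendrocyte progenitors, rose less. It had 442 and 481 normalized counts in wt and 1016 and 1048 in Top2β-null MEF cells. Each Top2β-null library had more than either wt library. The means of 462 ± 27.5 and 1032 ± 22.5 (SD, n = 2) were 2.24-fold apart, with a log2 fold change of 1.16 (SE 0.0664, adjusted p = 1.9e-10). The value was called under all 11 alternatives and ranged from 1.10 to 1.53. Changes of this size were found in 15.9% of 4023 features of similar level. Olig1 was at 0 counts in all libraries and Olig2 had at most 3, and the 6 oligodendrocyte lineage markers summed to 349 and 393 normalized counts in wt and 427 and 356 in Top2β-null MEF cells.

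**Figure D2:**
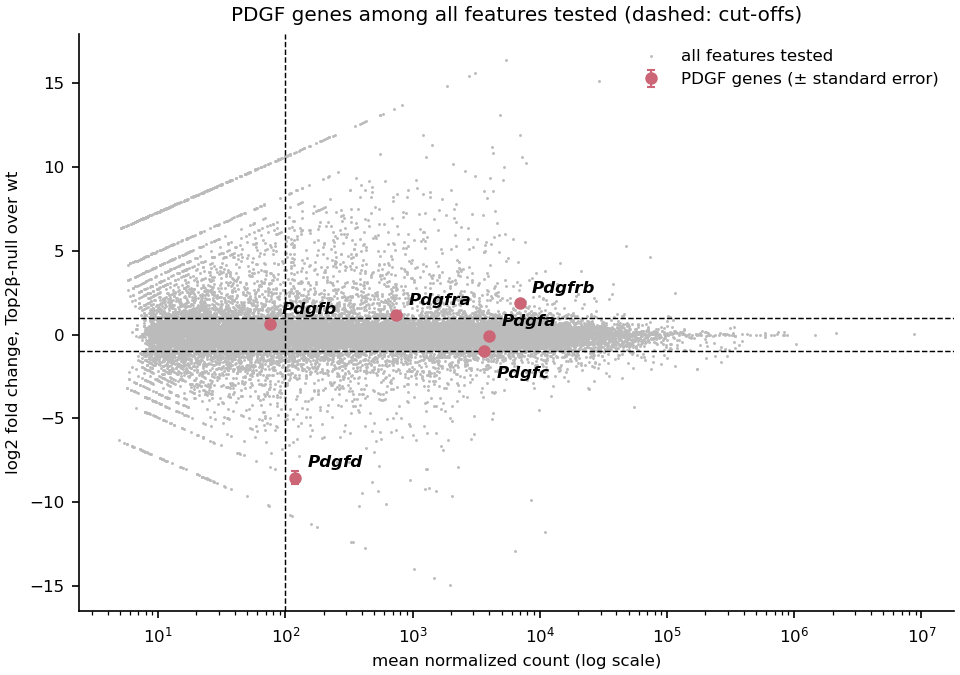
Log2 fold change of Top2β-null over wt (vertical axis) against the mean normalized count (horizontal, log scale) for all 26566 features (grey) and the 6 PDGF genes (red, ± standard error); dashed lines are the cut-offs. Pdgfra and Pdgfrb lie above the upper line, Pdgfd at -8.55 lies among few features of its level, and Pdgfc lies at the lower line.

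Pericytes and vascular smooth muscle cells are the best-known carriers of PDGFRβ, and their markers did not rise as a group with Pdgfrb. The 11 markers summed to 150886 and 154817 normalized counts in wt and to 30310 and 30450 in Top2β-null MEF cells. Acta2 held most of the wt sum, with 104063 and 106902 in wt and 5256 and 5431 in Top2β-null MEF cells. Cspg4 held most of the Top2β-null sum, with 35151 and 36308 in wt and 23029 and 22849 in Top2β-null MEF cells. Its log2 fold change was -0.64, and it was not called. Acta2, Tagln, Mcam and Cnn1 were called lower, whereas Notch3 was called higher, from 21.2 and 30.9 to 504 and 578 normalized counts. The pericyte marker Rgs5 had at most 4 counts, and Abcc9 at most 3, in any library. The epithelial markers summed to 83.8 and 92.7 in wt and to 23.8 and 26.7 in Top2β-null MEF cells, and the leukocyte markers to 3234 and 3298 and to 2103 and 2134, with Tyrobp at 0 in all libraries. Among the leukocyte markers Cd68 was called lower, from 1641 and 1688 to 302 and 289 normalized counts, while Csf1r and Itgam had log2 fold changes of 0.36 and 4.68 and were not called. In bulk RNA, a different share of cells and a different amount of RNA per cell cannot be told apart.

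Levels were compared between genes per kb of exon (union of all annotated exons). In wt MEF cells the order of mean levels was Pdgfa (1325 ± 41.2 normalized counts per kb), Pdgfc (955 ± 7.49), Pdgfrb (542 ± 8.26), Pdgfd (74.9 ± 5.87), Pdgfra (46.0 ± 2.75) and Pdgfb (14.1 ± 1.95; SD, n = 2). In Top2β-null MEF cells Pdgfrb was first (1993 ± 15.9), followed by Pdgfa (1250.0 ± 9.87), Pdgfc (478 ± 16.2), Pdgfra (103 ± 2.25), Pdgfb (22.0 ± 0.853) and Pdgfd at 0.328 and 0. Within each genotype no adjacent genes in this order overlapped between libraries. The order in wt depends on the length used. Without division by length, the wt means placed Pdgfc (4861 normalized counts) above Pdgfa (4132) and Pdgfra (461.5) above Pdgfd (236.2). Pdgfrb thus moved from below both main ligand genes to the top of the family.

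The summed level of the 4 ligands was 2340.0 and 2398 normalized counts per kb in wt and 1755 and 1747 in Top2β-null MEF cells, a ratio of 0.739. The summed level of both receptors was 580.1 and 596 in wt and 2083 and 2109 in Top2β-null MEF cells, a ratio of 3.57. With scaling to Hprt the ratios were 0.954 and 4.60, without overlap of the genotypes in either sum. Ligand RNA was thus more abundant than receptor RNA per kb in both wt libraries and less abundant in both Top2β-null libraries. These sums were not tested.

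**Figure D3:**
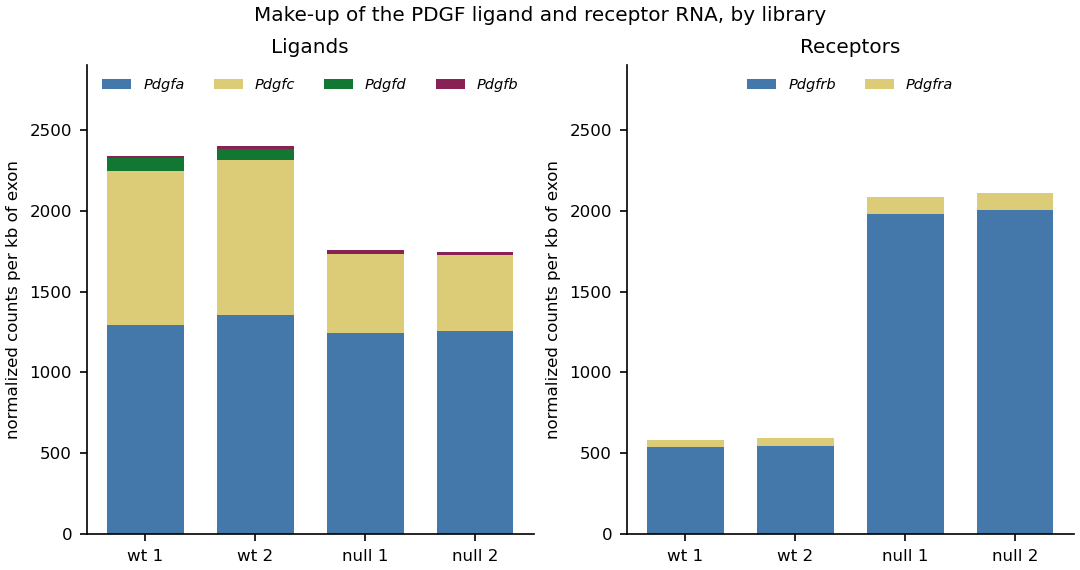
Normalized counts per kb of exon (vertical axes, linear from 0) of the ligands (left) and receptors (right), stacked by gene for each of the 4 libraries. The ligand sum was 0.739 of wt in Top2β-null MEF cells, and the receptor sum was 3.57 times wt.

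The make-up of the ligand RNA differed between the genotypes, with a larger share of Pdgfa in both Top2β-null libraries. Pdgfa made up 55.4% and 56.5% of the ligand counts per kb in wt and 70.8% and 72.0% in Top2β-null MEF cells. The share of Pdgfc was 40.6% and 40.1% in wt and 27.9% and 26.7% in Top2β-null MEF cells. Mean shares of Pdgfd were 3.16% for wt and 0.00936% for Top2β-null libraries, and those of Pdgfb were 0.598% and 1.26%. By counts alone, without division by length, Pdgfc was the most abundant ligand in wt (52.3%) and Pdgfa in Top2β-null MEF cells (60.7%), so the leading ligand of wt depends on the length used.

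Ratios within a library do not depend on the scaling between libraries. The log2 ratio of Pdgfra over Pdgfrb per kb was -3.60 and -3.51 in wt and -4.29 and -4.26 in Top2β-null MEF cells. Although both receptors rose, the balance was thus further on the side of Pdgfrb in both Top2β-null libraries. The difference of -0.72 compares with a pooled SD of 0.0475 between replicates, and the two-sided exact permutation test gave p = 0.33, the smallest value that 2 against 2 libraries allow. The log2 ratio of Pdgfa over Pdgfc was 0.45 and 0.50 in wt and 1.34 and 1.43 in Top2β-null MEF cells (exact permutation p = 0.33).

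Genes with the pattern most like each PDGF gene were sought among 12132 protein-coding genes by the root mean square distance of centred log2 normalized counts over the 4 libraries. Pdgfrb was close to Zbtb46, a zinc finger factor (distance 0.0087), with 70 genes within a distance of 0.1. Pdgfra was closest to Rab43, a small GTPase (0.0142), and Retsat, a retinol saturase (0.0178), with 265 genes within 0.1. Pdgfd had no gene within 0.1, and its nearest was the Wnt ligand gene Wnt10b (0.428). Pdgfc was nearest to Abtb2 (0.00577) and Tbc1d22a (0.00774), Pdgfb to Osgepl1 (0.0232) and Akip1 (0.0302), and Pdgfa to Fam20c (0.00363), a kinase of secreted proteins, and Yipf2 (0.00464). For Pdgfa, 3385 genes lay within 0.1. With 4 libraries in 2 groups, such likeness mainly reflects a similar fold change.

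The PDGF genes had between 1 and 25 protein-coding neighbours tested. Of 60 protein-coding genes tested within 500 kb of a PDGF gene, 6 were called higher and 4 lower, which is 16.7% beside 14.3% of all protein-coding genes tested. Pdgfb had 7 of these 10 among its 25 tested neighbours, Pdgfa had 2 among 15 and Pdgfrb 1 among 16, and the difference between loci was not tested. Close to Pdgfb, the Polycomb gene Cbx7 increased from 77.7 and 66.7 to 634 and 597 (normalized counts), while the cytidine deaminase gene Apobec3 rose from 11.1 and 3.86 to 2680.0 and 2762. The synaptic vesicle gene Syngr1 was also higher (log2 fold change 1.25), whereas Nptxr (-1.23), the ribosomal protein gene Rpl3 (-1.20), Kdelr3 (-1.11) and Cby1 (-1.05) were lower. Cby1 was not called without wt replicate 2 (-0.99) or under scaling to the total count (-0.98). Pdgfb therefore lay between genes that were called in either direction.

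Near Pdgfa, Prkar1b, a regulatory subunit of protein kinase A, and A430033K04Rik were higher (log2 fold changes 3.09 and 1.35). Fam20c, whose pattern was nearest to that of Pdgfa, is also its neighbour, with start sites 243 kb apart. Around Pdgfrb, 16 genes were tested and only the actin-associated gene Synpo was called (log2 fold change 2.93), while the others had log2 fold changes from -2.95 to 7.12, with both extremes in genes under the cut-off on level. Csf1r, the receptor tyrosine kinase gene next to Pdgfrb, had 740 and 767 normalized counts in wt and 962 and 978 in Top2β-null MEF cells and was not called (0.36). Lnx1 (-0.42) and Chic2 (0.23) near Pdgfra and Glrb (-0.16) near Pdgfc were not called either. 

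**Figure D4:**
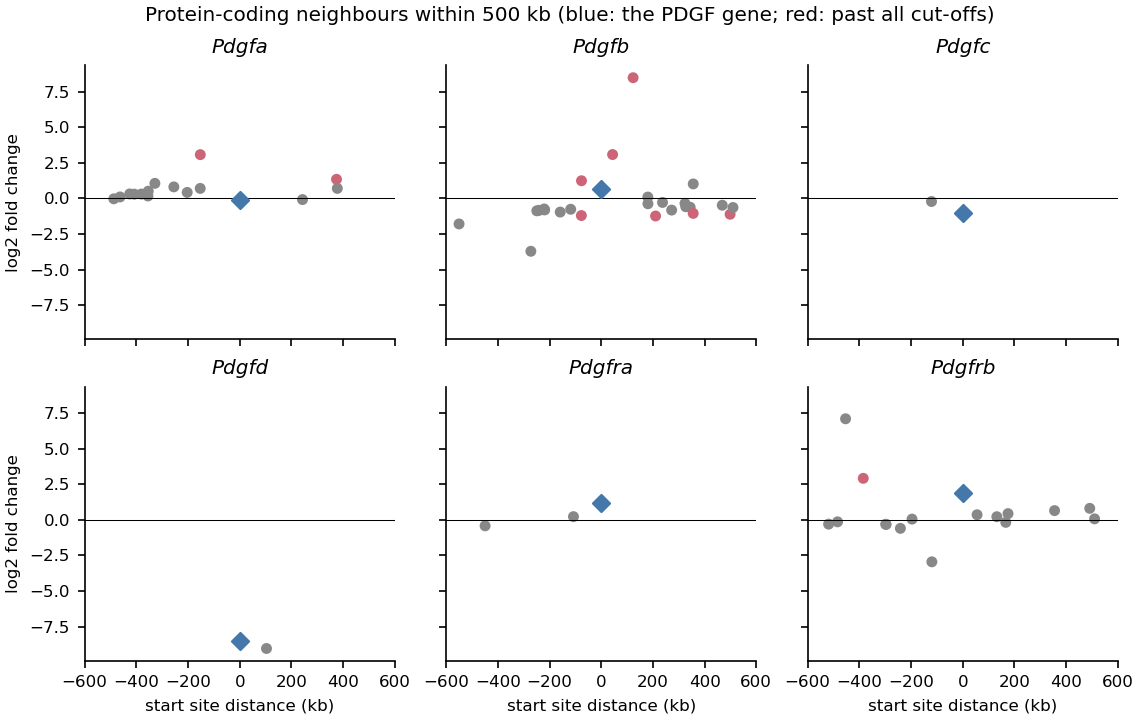
Log2 fold change (vertical axes) of protein-coding genes within 500 kb of each PDGF gene against the distance between start sites in kb (horizontal, positive downstream of the PDGF gene); blue diamonds are the PDGF genes and red points passed all cut-offs. Pdgfb has 7 called neighbours, Pdgfa 2 and Pdgfrb 1, while Ddi1 within Pdgfd lies at -9.04.

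The steps around the ligands and receptors were followed in 5 gene lists. The first held 10 genes that process PDGF ligands or bind PDGF or its receptors, of which 7 were tested. In this list 3 were called higher and 2 lower (71.4%, beside 10.2% of all features and 14.3% of protein-coding genes), with a median log2 fold change of 0.36 beside 0.0027 over all features. Plat, the tissue plasminogen activator known to release active PDGF-C, had 1272 and 1326 normalized counts in wt and 3250.0 and 3275 in Top2β-null MEF cells (log2 fold change 1.33, adjusted p = 2e-13). Plau, the urokinase known to release active PDGF-D, rose from 2897 and 2980.0 to 6088 and 6388 (1.09, adjusted p = 1.1e-13). Both proteases were thus higher in the libraries in which the ligands they cleave were lower.

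Nrp1, a neuropilin that binds VEGF, semaphorins and PDGF, was at 2821 and 2863 normalized counts in wt and at 39384 and 39247 in Top2β-null MEF cells, a 13.8-fold difference. Pcsk6, a proprotein convertase, fell from 1862 and 1824 to 58.0 and 32.7 (log2 fold change -5.35). Furin, the convertase that cuts the PDGF-A and PDGF-B precursors, had a log2 fold change of -0.02 (adjusted p = 0.45), and Pdgfrl, the PDGF receptor-like gene, fell by 1.05. The call of Pdgfrl was lost without wt replicate 2 (-0.97) and under scaling to the total count (-0.98) or to Hprt (-0.69). Lrp1, an endocytic receptor that associates with PDGFRβ, passed the adjusted p at 0.36. Pcsk5, Plg and St14 had too few counts to be tested.

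Cytoplasmic transducers of the receptors were called about as often as other features. Of 38 genes, all tested, 2 were called higher and 2 lower (10.5%), beside 10.2% of all features and 14.3% of protein-coding genes. An adjusted p below 0.05 was reached by 34 of them, 22 of these higher, beside 65.0% of all features, and the median log2 fold change was 0.13. The transcription factor gene Stat3 rose from 4775 and 4850.0 to 14666 and 14894 normalized counts (log2 fold change 1.62). The exchange factor gene Vav3 fell by 1.53 on the log2 scale, and the tyrosine kinase gene Src was 2.42-fold lower. The adaptors Grb2 (-0.06) and Crk (0.01) did not pass the adjusted p. Pik3r1, the regulatory subunit of PI3 kinase, had a log2 fold change of 0.83, and Plcg1 one of 0.67.

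Negative regulators changed in both directions. Of 20 genes, 5 were called higher and 3 lower (40.0%, beside 14.3% of protein-coding genes), with a median log2 fold change of 0.43. Spry4 (1.56) and Dusp6 (1.42), which dampen RAS and ERK signaling, were higher, whereas Dusp4 (-1.86), Spry1 (-1.41) and the receptor phosphatase gene Ptprj (-1.09) were lower. Grb10, an imprinted adaptor gene, had 3 counts over both wt libraries and 57906 and 58479 normalized counts in the Top2β-null libraries. Its ratio was 39300 with a 95% exact interval of 13400 to 191000 for counting error, and the median of the list does not depend on how far Grb10 lies at its top. Sprouty and DUSP genes thus had members called in each direction.

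Among 20 early genes known to be induced by PDGF and serum, 8 were called higher and 3 lower (55.0%, beside 14.3% of protein-coding genes), with a median log2 fold change of 0.22. Egr1, a zinc finger transcription factor, was at 1406 and 1467 normalized counts in wt and at 20052 and 20770.2 in Top2β-null MEF cells. The hyaluronan synthase gene Has2 (3.07) and Fos (2.99) were also higher. The chemokine gene Ccl2 was 8.01-fold lower, and Ier2 fell by 1.39 on the log2 scale. Myc had a log2 fold change of -0.04 (adjusted p = 0.31).

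The closest relatives of the PDGF genes are the class III receptor tyrosine kinases, their ligands and the VEGF family. Of 15 such genes, 13 were tested, 3 were called higher and 2 lower (38.5%, beside 14.3% of protein-coding genes), and the median log2 fold change was 0.57. The VEGF receptor genes Flt1 (3.15) and Kdr (1.54) and the ligand gene Vegfc (1.19) were higher, and the ligand genes Il34 (-2.80) and Kitl (-2.52) were lower. Kitl fell from 19259 and 19288 to 3404 and 3342 normalized counts, and its receptor gene Kit had at most 1 count in any library. Over the 5 lists, 33 of 98 tested genes were called (33.7%) beside 14.3% of all protein-coding genes. The lists were written with results of these data known, and no test of the lists was made. Shares were not matched for level, and only features with a mean above 100 normalized counts could be called.

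**Figure D5:**
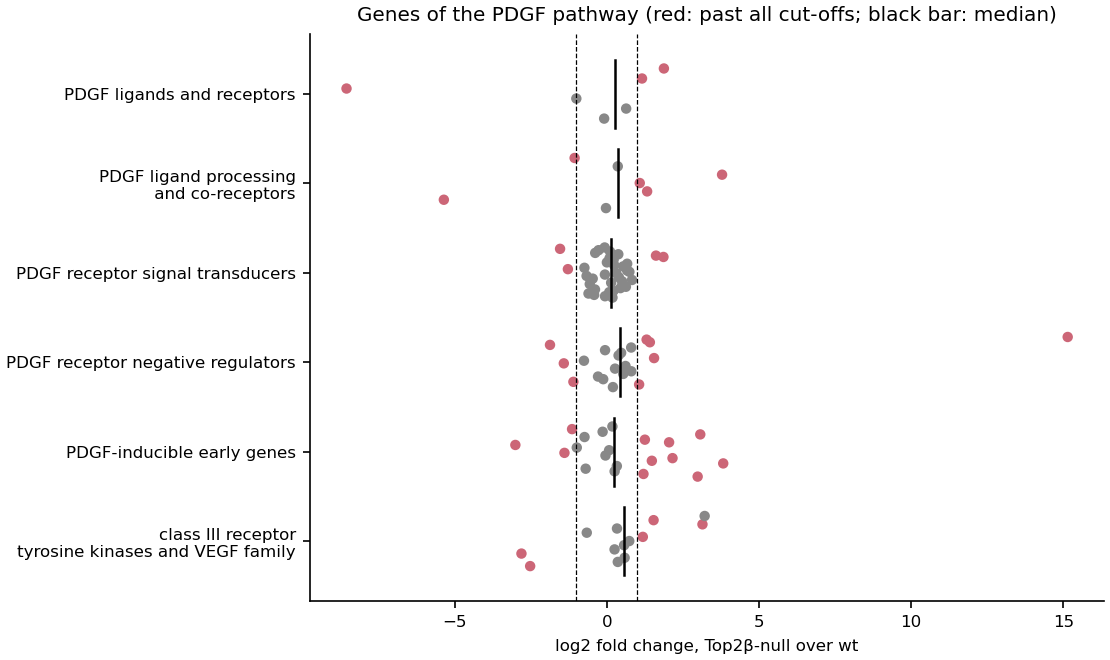
Log2 fold change of Top2β-null over wt (horizontal axis) for the PDGF genes and the tested genes of the 5 lists, one row per list; red points passed all cut-offs, black bars are medians, and dashed lines mark 1 and -1. Transducers lie mostly between the dashed lines (4 of 38 called), whereas 11 of 20 early genes were called.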

How the data were processed

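Total RNA of 2 wt and 2 Top2β-null MEF libraries was prepared with a stranded kit after ribosomal depletion. The authors used Trim Galore! for trimming, STAR for alignment to mm10, and TEtranscripts to count reads over genes (Gencode) and repeat families (RepeatMasker). The deposited values are raw counts, and the strand setting and the sharing of multi-mapped reads are not given in the sources used here. Symbols, positions and exon lengths came from GENCODE M21, which matched 54409 of 54842 gene identifiers. Genes and repeat families with 10 or more counts in 2 libraries or more were tested (25085 and 1481). The edgeR 4.0.16 quasi-likelihood test (R 4.3.3) used TMM factors over all features with genotype as the sole term. Adjusted p-values follow Benjamini and Hochberg over 26566 features, and the study's cut-offs defined a call. SE is the absolute log2 fold change over the root of F. Normalized counts are counts divided by each effective library size and multiplied by the geometric mean of these sizes. Totals were 133116830 to 149647278 counts per library. Over genes, the chi-square between replicates divided by its degrees of freedom was 3.19 for wt and 2.74 for Top2β-null MEF cells, which exceeds counting noise.

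Alternatives were DESeq2 1.42.0, TMM factors without repeats, scaling by Hprt or by library totals, no filter, a filter of 100 counts in every library, the replicate number as a block, adjusted p alone, shares without length, and leaving out each library. The named genes are the 6 members, Top2b, up to 3 called genes per pathway list and direction, list genes whose role is described with their uncalled values, called coding genes within 500 kb, and 2 most alike genes per member. Some genes that this rule names are not reported here. The neighbours Csf1r, Ddi1, Glrb, Lnx1 and Chic2 and the markers given with values were named knowing their values. The members, the 5 pathway lists and the 7 marker lists were chosen with earlier results of these data known. The fit was tested on simulated data.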

Additional observations from a re-analysis of the deposited data

How the results depend on the processing

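Pdgfrb, Pdgfra and Pdgfd kept their direction and call under every alternative that gave a value, with Pdgfd between -10.894 and -7.666. A minimum of 100 counts in every library left no value for Pdgfb and Pdgfd, and 2 of the 6 genes were then called. The log2 fold change of Pdgfa was -0.084 and lost its adjusted p with DESeq2 (-0.076), TMM factors without repeats (-0.072), library totals as scaling (-0.014), no filter (-0.067) and the stricter filter (-0.077), and it reversed with scaling to Hprt (0.285). Leaving out single libraries gave -0.115 to -0.052 for Pdgfa and 0.503 to 0.785 for Pdgfb, and Pdgfb missed the adjusted p with DESeq2 (0.647). The causes were not tested. Pdgfc ranged from -1.011 without Top2β-null replicate 1 to -0.629 with scaling to Hprt, which gave 1.008 for Pdgfb. Fits without a library assume that the lone library of a group varies like the other group. With the adjusted p alone (cut-off 0.05), 6 PDGF genes, 34 transducers, 19 negative regulators, 19 early genes and 11 genes of the class III receptor and VEGF list were called, and scaling to Hprt gave 7 transducers. Among the pathway-list and neighbour genes named as called lower, scaling to Hprt ended the calls of Pdgfrl, Src, Ptprj, Kdelr3, Nptxr, Cby1 and Rpl3. Their log2 fold changes were then from -0.906 to -0.68. Calls of the cell type markers were not followed under this scaling. Without division by length, ligand shares in wt were 44.5% for Pdgfa, 52.3% for Pdgfc and 2.55% for Pdgfd, and in Top2β-null MEF cells 60.7% for Pdgfa, 37.9% for Pdgfc and 1.43% for Pdgfb. Libraries of the same number did not deviate together (correlation 0.0197 over 17952 features). With the replicate block the log2 fold changes were -0.084 for Pdgfa, 0.641 for Pdgfb, -0.998 for Pdgfc, -8.547 for Pdgfd, 1.161 for Pdgfra and 1.879 for Pdgfrb, and no call of these genes changed. Depth limits Pdgfd, with 1 count in the Top2β-null libraries, and Pdgfb, with fewer than 100 counts in each library. No group had enough libraries for a test of outliers.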
